A study of Mus musculus with 3 samples.

Results

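The genes that build and load major histocompatibility complex (MHC) class I molecules were described across the cells between which the series draws its comparison, mouse embryonic fibroblasts (MEFs) and embryonic stem cells (ESCs). The 10 genes were taken by name, by matching the Ensembl identifiers of the RNA-seq tables to mouse symbols, out of 29267 genes in each table. They were the class I heavy chains H2-K1, H2-D1, H2-T23 and H2-M3, the light chain B2m, the peptide transporter subunits Tap1 and Tap2, the loading chaperone Tapbp and the immunoproteasome subunits Psmb8 and Psmb9. All 10 had a count in each MEF library. There were 3 libraries, namely MEFs of strain OG2 and MEFs of strain ICR, both at passages 3 to 5, and ESCs of the line R1 at passage 30, titled naive. The labels name no treatment. OG2 animals carry a transgene in which the Oct4 promoter drives GFP, ICR is an outbred stock, and R1 is a single ESC line of 129 origin. The number of embryos behind each MEF library and the MHC haplotype of any of the 3 sources are not given in the sources used here.

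MHC class I molecules carry short peptides from inside the cell to its surface, where cytotoxic T cells and natural killer cells read them. The proteasome cuts proteins into peptides, the transporter of Tap1 and Tap2 moves the peptides into the endoplasmic reticulum, and tapasin, the product of Tapbp, holds an empty heavy chain at the transporter until a peptide binds. A heavy chain reaches the surface in a stable form only with B2m (beta-2-microglobulin). The classical heavy chains, here H2-K1 and H2-D1, are among the most polymorphic genes of vertebrates, so strains of mice differ in their sequence. Embryonic cells are known for low class I levels that interferons raise.

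The expected counts, which are RSEM's estimates of the reads of each gene, summed to 5149312 for OG2 and 4590619 for ICR MEFs, against 1717838 for the ESC library. Taken as the floor, 3 counts corresponded to 0.583, 0.654 and 1.75 counts per 1000000 (CPM) in that order, and intervals and floors below cover counting error only. The labels were checked with marker genes. The 10 fibroblast markers, Col1a1 and Vim among them, summed to 17347 and 18519 transcripts per 1000000 (TPM, which is scaled by gene length) in the MEFs and 1216 TPM in the ESC library. Of 14 pluripotency markers, 7 were at 0 in the ESC library, Zfp42, Esrrb and Dppa5a among them, while Pou5f1 had 71 counts and Nanog 51. It is therefore called the library labelled ESC. It had no replicate, so every test below took its spread from the MEF pair, whose libraries also differ in strain, and nothing says which part of that spread is technical. In bulk RNA, fewer cells of a type cannot be told apart from less RNA per cell.

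Because the reads were aligned to reference transcripts, the class I heavy chains were first compared as sequences. The shared and the most different coding stretches of the classical genes H2-K1 and H2-D1 are shown since they set what a read can tell apart. H2-K1 (ENSMUSG00000061232, chr17:33996017-34000347, minus strand) and H2-D1 (ENSMUSG00000073411, chr17:35262730-35267499, plus strand) had 91.4% identical bases over 1077 aligned coding bases of GRCm38, with a longest identical run of 91 bases. This run lies in exon 4 of both genes, the exon that codes for the membrane-proximal immunoglobulin-like domain, at chr17:33997343-33997433 in H2-K1 and chr17:35265911-35266001 in H2-D1.
H2-K1 and H2-D1, shared: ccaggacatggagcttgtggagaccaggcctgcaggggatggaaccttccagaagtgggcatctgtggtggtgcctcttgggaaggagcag
The least alike stretch of 90 coding bases lies in exon 3 of both genes, at chr17:33999312-33999401 in H2-K1 and chr17:35263984-35264073 in H2-D1. That exon codes for a wall of the peptide groove. Here 17 of the 90 bases differed, which are in capitals.
H2-K1: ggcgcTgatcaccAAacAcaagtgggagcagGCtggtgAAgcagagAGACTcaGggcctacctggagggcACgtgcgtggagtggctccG
H2-D1: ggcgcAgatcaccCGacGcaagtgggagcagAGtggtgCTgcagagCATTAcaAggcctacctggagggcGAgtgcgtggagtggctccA
Even this stretch was 81.1% identical. A read end of 50 bases from the exon 4 run would match both genes equally, and a read from exon 3 would be placed by a few bases.

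The overlap with other genes was measured as the share of all 50-base windows of a gene's annotated transcripts that also occur in a transcript of another gene. It was 12.8% for H2-D1 and 8.53% for H2-T23. For H2-K1 it was 308 of 3032 windows, all of them shared with class I genes. H2-D1 and H2-T23 shared a coding run of 145 bases. The non-classical H2-M3 stood apart, with 0.576% of its windows shared and 72.9% to 75.1% coding identity to the other class I genes compared. Outside the heavy chains the overlap was small. It was 0.442% for Tap1 and 0.655% for Tap2, each with the other gene, and 1.15% for Tapbp, with genes that are not class I. B2m, Psmb8 and Psmb9 shared no 50-base window with any other gene. Windows were compared in the direction of transcription only, so the overlap of the Psmb9 and Tap1 spans on opposite strands is not counted. By this measure, counts of H2-K1, H2-D1 and H2-T23 are less certain than those of the other members. A strain whose allele differs from the reference could lose reads or give them to another class I gene. This was not tested, since neither reads nor haplotypes were analysed here.

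**Figure D1:**
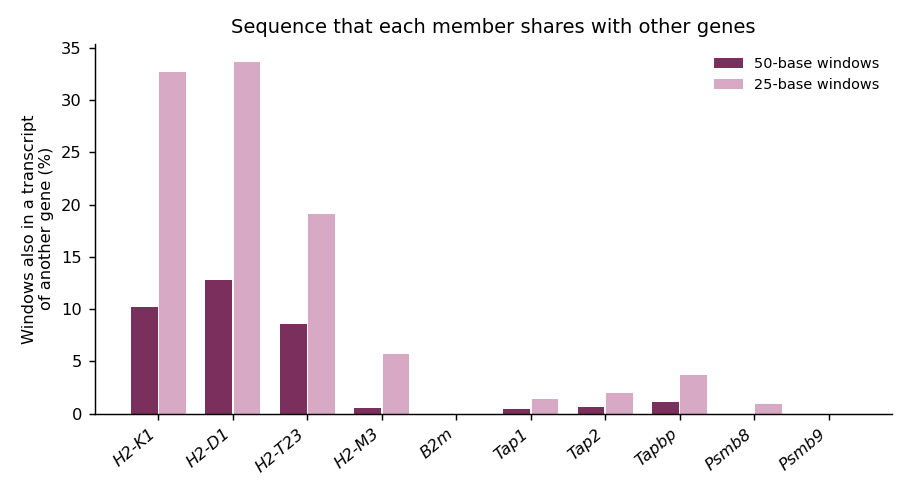
Share (%, vertical axis) of the 50-base (dark) and 25-base (light) windows of each member's annotated transcripts that also occur in a transcript of another gene. H2-K1, H2-D1 and H2-T23 stand above the other members at both lengths, with 32.7%, 33.7% and 19.1% of their 25-base windows shared.

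H2-K1 encodes a classical heavy chain, which presents peptides to CD8 T cells. It had 139.6 expected counts in OG2 and 221.5 in ICR MEFs, against 195 in the library labelled ESC, which are 24.8, 42.8 and 140 CPM after TMM scaling. The library labelled ESC was thus highest and OG2 MEFs lowest. On the log2(CPM + 1) scale the MEF mean was 5.07 ± 0.54 (SD, n = 2) and the library labelled ESC was 2.07 higher, with an adjusted p of 9.55e-05 by edgeR's quasi-likelihood test. Per length, H2-K1 reached 35.5, 63.9 and 70.5 TPM, and its TPM lay above that of 75.1%, 84.2% and 92.2% of the 17810 genes with a count. The fold change on log2(TPM + 1) was 0.56.

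H2-D1, the other classical heavy chain, differed most between the MEFs. It had 269.2 expected counts in OG2 and 1014 in ICR MEFs, against 290.5 in the library labelled ESC, or 47.7, 196 and 209 CPM. In CPM, ICR MEFs and the library labelled ESC were close and OG2 MEFs were low. In TPM the values were 56.6, 264 and 75.3, so that the library labelled ESC lay near OG2 MEFs and the fold change turned to -0.69. The MEF mean of 6.62 ± 1.43 (SD, n = 2) had the widest spread of any member. The library labelled ESC was 1.10 log2 units above it and was not called (edgeR's quasi-likelihood test, adjusted p = 0.188). Without OG2 MEFs the difference was 0.09, and without ICR MEFs it was 2.10, so its size depended on which MEF library was used. The ratio of H2-D1 to H2-K1 in TPM was 1.60 in OG2 and 4.12 in ICR MEFs, against 1.07 in the library labelled ESC.

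H2-T23 (ENSMUSG00000067212, chr17:36029773-36032855, minus strand) encodes Qa-1, a non-classical heavy chain read by an inhibitory receptor of natural killer cells. It had 43.34 expected counts in OG2 and 28.21 in ICR MEFs, against 310.1 in the library labelled ESC, or 7.63, 5.42 and 222 CPM. The MEF libraries lay close together and far below the third one. The log2 fold change of 4.91 against a MEF mean of 2.90 ± 0.30 (SD, n = 2) was the highest of the members (edgeR's quasi-likelihood test, adjusted p = 1.69e-07). H2-M3 (ENSMUSG00000016206, chr17:37270220-37274484, plus strand), which presents peptides that start with formyl-methionine, was near the floor. It had 11 counts in OG2 and 10 in ICR MEFs, against 0 in the library labelled ESC. Before TMM scaling these were 2.14 and 2.18 CPM in the MEFs, whereas a count of 0 at the depth of the library labelled ESC allows up to 2.24 CPM (Wilson, 95%). A difference in H2-M3 was therefore not detectable at this depth (edgeR's quasi-likelihood test, adjusted p = 0.105).

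**Figure D2:**
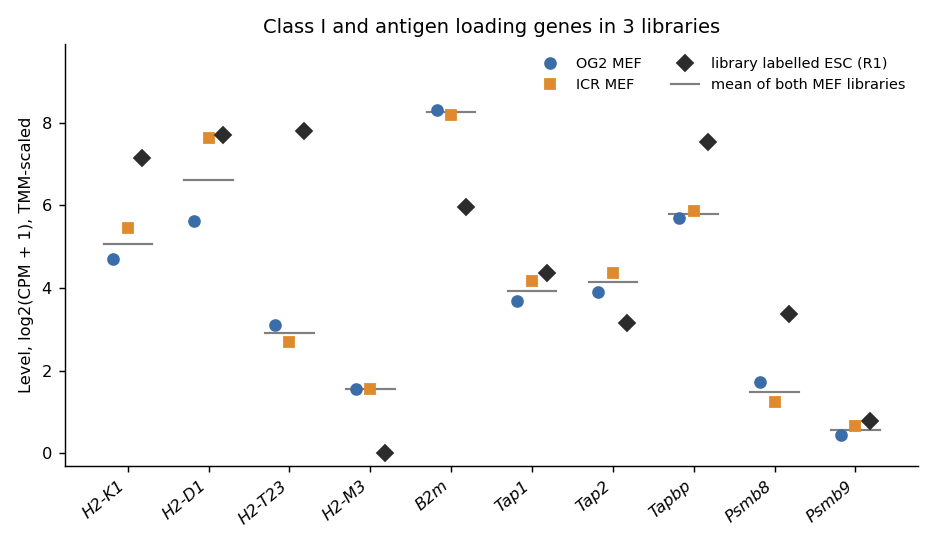
Level of each member in each library as log2(CPM + 1) after TMM scaling (vertical axis), with a circle for OG2 MEF, a square for ICR MEF, a diamond for the library labelled ESC and a grey line at the mean of both MEF libraries. CPM is not scaled by gene length, so levels are to be compared within a gene, where H2-T23 lies 4.91 above and B2m 2.29 below the MEF mean in the library labelled ESC.

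Since RSEM divides shared reads among the heavy chains, their counts were also summed over the 24 class I heavy chain genes found in the tables out of 31 listed, of which 13 had a count. A sum does not depend on how reads were divided within the family, but reads of an allele that matched no reference transcript would still be lost from it. The sum was 773 counts in OG2 and 1485 in ICR MEFs, against 1164 in the library labelled ESC, or 137, 287 and 835 CPM. The order was that of H2-K1. The library labelled ESC was 2.07 log2 units above the MEF mean of 7.64 ± 0.75 (SD, n = 2), with an adjusted p of 3.50e-04 by edgeR's quasi-likelihood test. ICR MEFs were above OG2 MEFs by 1.06. With TPM in place of CPM, the difference from the MEFs was 0.43, since the summed TPM were 179, 397 and 360.

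The share of this sum that each gene received differed between the libraries. H2-D1 took 34.8% in OG2 and 68.3% in ICR MEFs, against 25.0% in the library labelled ESC. H2-K1 kept close to the same share in each of them, at 18.1%, 14.9% and 16.8%. H2-T23 took 5.61%, 1.90% and 26.6%. Much of the remainder went to H2-T22 in OG2 MEFs and to H2-Q6 in the library labelled ESC, which are not members. H2-T22, a non-classical heavy chain that does not present peptides, took 34.9% in OG2 MEFs against 4.53% and 1.91%, with 270, 67 and 22 counts. H2-Q6, a gene of the Qa region whose coding sequence is 89.6% identical to that of H2-D1, took 0.173% and 0.783% in the MEFs, with 1 and 12 counts, and had 280 counts in the library labelled ESC. H2-Q6, and H2-Q4 and H2-Q2 below, were named after their values were seen. Of the 9 family genes tested, members included, H2-K1, H2-T23, H2-Q4 and H2-Q6 were called higher in the library labelled ESC by edgeR and 5 were not called, and the median log2 fold change of 2.07 stays as it is with H2-M3 and H2-Q2, both at 0 there, set at 3 counts. On log2(TPM + 1) this median was -0.47. Over all genes tested, 31.4% were called higher, and the median was -0.41 on log2(CPM + 1) and -1.55 on log2(TPM + 1).

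**Figure D3:**
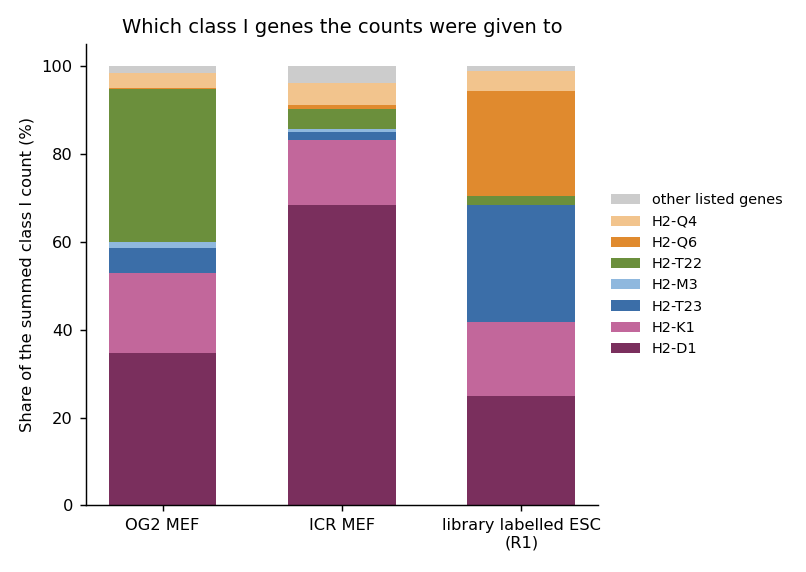
Share (%, vertical axis) of the summed class I heavy chain count that each gene received, as 1 stacked bar per library. H2-D1 fills 68.3% of the ICR MEF bar, H2-D1 and H2-T22 fill 34.8% and 34.9% of the OG2 MEF bar, and H2-D1 and H2-T23 fill 25.0% and 26.6% of the bar of the library labelled ESC, where the orange part is H2-Q6.

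B2m (ENSMUSG00000060802, chr2:122147686-122153083, plus strand), the light chain of every class I molecule, is the only member that does not lie on chromosome 17. It had 1788 expected counts in OG2 and 1494 in ICR MEFs, against 85 in the library labelled ESC, or 317, 289 and 61.0 CPM. Both MEF libraries were high and close together, and the library labelled ESC was low. B2m fell by 2.29 on the log2 scale from a MEF mean of 8.25 ± 0.10 (SD, n = 2), with an adjusted p of 2.14e-05 by edgeR's quasi-likelihood test. The value was -1.30 after GC-content correction, still called, and -3.90 on log2(TPM + 1). It was the member with the highest level per length in the MEFs, at 932 and 896 TPM, above 99.3% of the 17810 genes with a count in both, and its 60.2 TPM in the library labelled ESC were below those of H2-K1, H2-D1 and H2-T23.

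On log2(CPM + 1), B2m and the summed heavy chains thus went in opposite directions from the MEF mean. In TPM the summed heavy chains of the library labelled ESC, at 360, lay between OG2 MEFs at 179 and ICR MEFs at 397. Against ICR MEFs alone, both were therefore lower there in TPM, the heavy chains at 360 against 397 and B2m at 60.2 against 896. The median fold change of all genes tested was itself -1.55 on log2(TPM + 1), against the mean of both MEF libraries. In TPM, B2m stood at 5.21 times the summed heavy chains in OG2 and 2.25 times in ICR MEFs, against 0.167 times in the library labelled ESC. These are ratios within a library, so no scaling between libraries enters them, and they carry no test.

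Tap1 and Tap2 encode both subunits of the peptide transporter. Tap1 (ENSMUSG00000037321, chr17:34187553-34197225, plus strand) had 66, 87.88 and 27 expected counts in OG2 MEFs, ICR MEFs and the library labelled ESC, and its log2(CPM + 1) was 3.67, 4.17 and 4.35. Tap2 (ENSMUSG00000024339, chr17:34203527-34216321, plus strand) had 79, 102 and 11, and its log2(CPM + 1) was 3.91, 4.37 and 3.15. On this scale Tap1 was highest and Tap2 lowest in the library labelled ESC, but neither was called. Per length both were lowest there, with 9.72, 14.6 and 5.55 TPM for Tap1 and 10.7, 19.1 and 1.69 for Tap2, and the fold change of Tap1 on log2(TPM + 1) was -0.98. The log2 fold change was 0.43 for Tap1 (edgeR's quasi-likelihood test, adjusted p = 0.181) and -0.99 for Tap2 (adjusted p = 0.0953). Tap2 was called lower in the same test without the filter on low counts (adjusted p = 0.0317) and after GC-content correction (adjusted p = 0.0471), and DESeq2 gave 0.439. The ratio of Tap1 to Tap2 in TPM was 0.908 and 0.763 in the MEFs and 3.28 in the library labelled ESC, where it rests on 27 and 11 counts.

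Tapbp (ENSMUSG00000024308, chr17:33915899-33929292, plus strand) had 286 expected counts in OG2 and 295.9 in ICR MEFs, against 257.1 in the library labelled ESC, or 50.8, 57.3 and 184 CPM. The MEF libraries were alike and the third was higher. The log2 fold change of 1.75 against a MEF mean of 5.78 ± 0.12 (SD, n = 2) was called higher (edgeR's quasi-likelihood test, adjusted p = 8.49e-06). On log2(TPM + 1) it was -0.06, with 47.9, 52.5 and 48.2 TPM. Replacing CPM by TPM moved the median fold change of all genes by -1.11.

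Psmb8 and Psmb9 encode catalytic subunits that replace Psmb5 and Psmb6 in the immunoproteasome, the form that interferon gamma induces. Psmb8 (ENSMUSG00000024338, chr17:34197721-34201454, plus strand) had 13 counts in OG2 and 7 in ICR MEFs, against 13 in the library labelled ESC, or 2.31, 1.35 and 9.32 CPM. It was low in the MEFs, and its log2 fold change of 1.89 was called higher by edgeR's quasi-likelihood test (adjusted p = 0.0128). DESeq2 did not call it (adjusted p = 0.136), and on log2(TPM + 1) it was -0.01. Psmb9 (ENSMUSG00000096727, chr17:34181987-34187764, minus strand) had 2, 3.120 and 1 expected counts and did not pass the filter on low counts, so a difference was not detectable at this depth. Its annotated span overlaps that of Tap1 on the other strand, and strand-specific counting is not stated, so reads of the overlap cannot be told apart. Their constitutive counterparts were far more abundant. In TPM, Psmb8 stood at 0.0130, 0.0110 and 0.0241 times Psmb5 in the order OG2 MEFs, ICR MEFs and library labelled ESC, and Psmb9 at 0.00132, 0.00381 and 0.00374 times Psmb6.

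With all 10 members together, 9 were tested, 4 were called higher in the library labelled ESC (H2-K1, H2-T23, Tapbp and Psmb8), 1 was called lower (B2m) and 4 were not called. The background was high. Of 12663 genes tested, 31.4% were called higher and 36.0% lower by the same test, so that a call by itself sets no member apart. After GC-content correction the split over all genes was 4600 higher and 3419 lower in place of 3980 and 4563. The median log2 fold change was 1.10 over the members tested, and stays there with H2-M3 set at 3 counts, against -0.41 over all genes tested. With TPM in place of CPM these medians were -0.69 and -1.55, so the sign of the members' median depended on the scale. Only H2-K1, H2-D1 and Tapbp had at least 100 counts in every library.

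**Figure D4:**
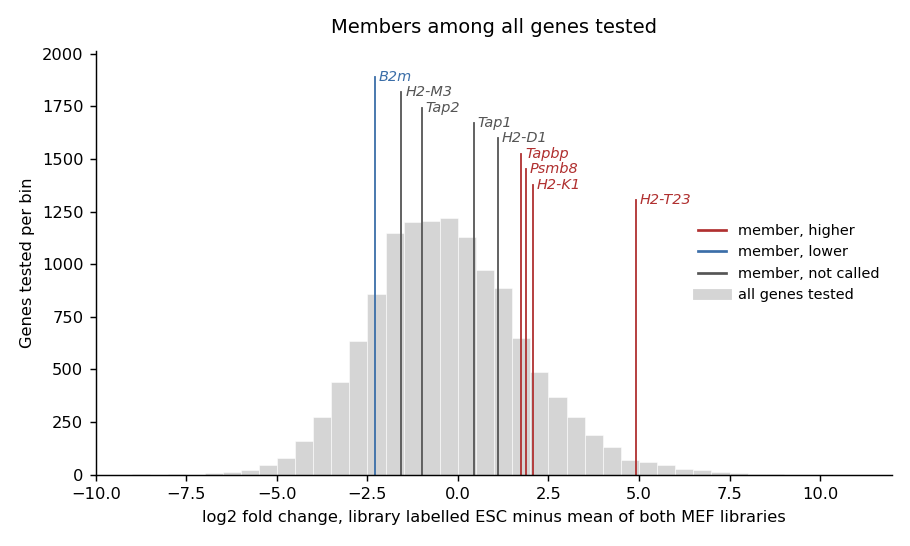
Number of genes tested per bin of log2 fold change (value of the library labelled ESC less the MEF mean, both as log2(CPM + 1), horizontal axis), with a vertical line at each of the 9 members tested, red where called higher, blue where called lower and grey where not called. The members spread from B2m at -2.29 to H2-T23 at 4.91, and line heights carry no value. With TPM in place of CPM, Tapbp, Psmb8, H2-D1 and Tap1 would lie below 0, at -0.06, -0.01, -0.69 and -0.98, and H2-M3 is at 0 counts in the library labelled ESC.

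Between the MEF strains, 1 of 10 members, H2-D1, was at least 1 log2 unit apart on log2(CPM + 1), against 2.76% of 17810 genes with a count. With 1 library per strain there is no test, and strain and library cannot be told apart. The CPM ratio of ICR to OG2 MEFs for H2-D1 was 4.11 (95% counting interval 3.59 to 4.72), a difference of 2.02 log2 units. For H2-K1 it was 1.72 (1.39 to 2.14), for Tap1 1.45 (1.04 to 2.03) and for Tap2 1.41 (1.04 to 1.91). B2m was slightly lower in ICR MEFs, at 0.911 (0.850 to 0.976). The intervals of H2-T23, H2-M3, Tapbp, Psmb8 and Psmb9 included 1, and the widest, that of Psmb9, ran from 0.187 to 19.6.

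In the rest of the class I family, the same threshold was passed in both directions. Including H2-D1, 7 of the 13 family genes with a count were higher in ICR MEFs and 1, H2-T22, was higher in OG2 MEFs, with a ratio of 0.270 (0.204 to 0.355). Over all 17810 genes with a count, 322 were higher in ICR MEFs and 170 in OG2 MEFs by this threshold. Apart from H2-D1, the 7 family genes were of the Qa region, of which H2-Q4 had the most counts (26 and 74, ratio 3.10, interval 1.96 to 5.05). In OG2 MEFs, H2-Q1, H2-Q6, H2-Q7 and H2-Q10 had 1, 1, 2 and 0 counts, below the floor of 3, and H2-Q2 had 4. The summed family was 2.09 times as high in ICR MEFs (1.92 to 2.29). Among the 28 MHC locus genes of other function, 0 were higher in ICR MEFs and 1 higher in OG2 MEFs by at least 1 log2 unit, and the median difference was -0.09. How much of the class I difference is a difference in RNA, and how much comes from reads of each strain's alleles matching the reference transcripts unequally, cannot be told apart here. The 12 leukocyte and macrophage markers summed to 251 counts in OG2 MEFs and 116 in ICR MEFs, and the part of such cells in these differences was not tested.

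**Figure D5:**
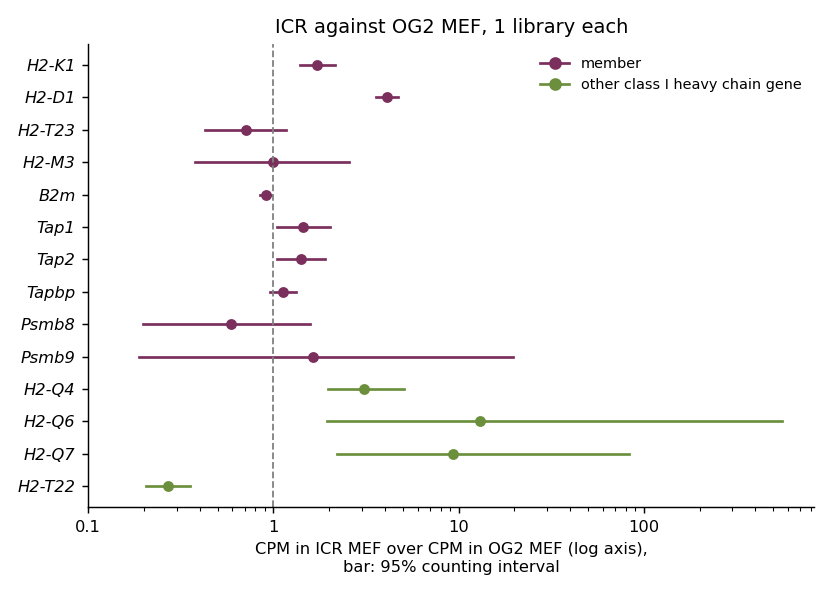
Ratio of CPM in ICR MEF to CPM in OG2 MEF (horizontal log axis) with its 95% counting interval as a bar, for the 10 members and for 4 other class I heavy chain genes. H2-D1 lies at 4.11 and H2-T22 at 0.270, while B2m, Tap1, Tap2 and Tapbp lie between 0.911 and 1.45. The intervals of H2-T23, H2-M3, Tapbp, Psmb8 and Psmb9 include 1, and those of the other genes drawn do not.

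The other listed genes of peptide loading and trimming were mostly called lower. Of 9 such genes, 2 were higher in the library labelled ESC, 6 lower and 1 not called by edgeR. Those lower were the chaperones Canx and Pdia3 and the trimming peptidases Erap1, Tpp2, Nrd1 and Lnpep. Those higher were Calr and Tapbpl, the latter by 2.60, or 1.08 on log2(TPM + 1). Over all genes tested, 36.0% were called lower. The median log2 fold change was -1.45 against -0.41 over all genes tested, or -3.25 against -1.55 on log2(TPM + 1). After GC-content correction these medians were -0.44 and -0.04. The chaperones Canx and Pdia3, which fold and oxidise the heavy chain, fell by 1.45 (adjusted p = 3.13e-04) and 1.81 (adjusted p = 8.27e-05), as B2m did. Calr, the chaperone that sits with tapasin in the loading complex, was called higher by 0.39 (adjusted p = 0.0221), but was -1.44 on log2(TPM + 1). Sec61a1, a channel subunit of the endoplasmic reticulum, differed by 0.17, or -1.40 on log2(TPM + 1), and was not called (adjusted p = 0.123).

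Psmb10, the catalytic immunoproteasome subunit whose gene lies outside the MHC on chromosome 8, was unlike Psmb8 and Psmb9 in level. It had 65, 51 and 494 counts in OG2 MEFs, ICR MEFs and the library labelled ESC, a log2 fold change of 4.93 (edgeR's quasi-likelihood test, adjusted p = 9.35e-08). Against its constitutive counterpart Psmb7 it stood at 0.0622, 0.0585 and 0.908 in TPM. With it, 2 of the 4 other genes of the immunoproteasome list were called higher and 2 were not called, with a median log2 fold change of 0.77, or -0.35 on log2(TPM + 1). Of the proteasome activator subunits Psme1, Psme2 and Psme3, which open the proteasome for peptides, Psme2 alone was called, higher by 1.22 (adjusted p = 6.11e-05). The constitutive catalytic subunits Psmb5, Psmb6 and Psmb7 were also all called higher, by 0.59, 1.75 and 1.14, but on log2(TPM + 1) the values were -1.01, 0.19 and -0.45. Among 11 other subunits of the proteasome core, which the assembled particle holds in equal number, 7 were higher, 1 lower and 3 not called, and their fold changes ran from -0.96 for Psma3 to 2.71 for Psmb3. On log2(CPM + 1), the fold changes of Tap1, Tapbp, Psmb8, H2-D1 and H2-K1 lay within that range, and those of H2-T23 and B2m outside it. Tap2, at -0.99 on 11 counts in the library labelled ESC, lay just below the lower end of -0.96. On log2(TPM + 1) the range ran from -2.62 for Psma3 to 2.59 for Psmb4. Tap2 lay inside it at -2.51, and H2-T23 at 3.43 and B2m at -3.90 lay outside. The range is no test, since RNA of these subunits need not change alike, and whether the members' changes have the same source was not tested. H2-M3, at 0 counts in the library labelled ESC, could not be placed, since a difference in it was not detectable at this depth. Psma3 was named for being the lowest.

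The factors that switch on class I genes gave no single direction. Of 14 listed regulators, 13 were tested, 4 were higher, 4 lower and 5 not called, with a median of -0.46. Among the most abundant, Rela, Rfxap and Nfyc were called higher by 0.98, 1.64 and 0.70, and Atf1 fell by 1.63. On log2(TPM + 1) Rela and Nfyc turned to -0.56 and -0.91. Nlrc5, the class I transactivator, had 6 counts in each MEF library and 0 in the library labelled ESC and was not tested. Irf1, an interferon-induced activator, fell by 2.19 (edgeR's quasi-likelihood test, adjusted p = 0.00264). Of 9 interferon receptor and relay genes, 7 were called lower and 2 not, with a median of -1.81 against 36.0% called lower and a median of -0.41 over all genes tested, among them the kinase Jak1 with a fold change of -3.88 (adjusted p = 1.86e-06). Between ICR and OG2 MEFs, Irf1 had a CPM ratio of 1.25 (0.950 to 1.66), an interval that includes 1.

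Class I-like genes outside the locus were mixed. Of 5 tested, 2 were lower, 2 were not called and 1 was higher, namely Fcgrt, the Fc receptor that also pairs with B2m, by 0.84 (edgeR's quasi-likelihood test, adjusted p = 0.0157), or -0.68 on log2(TPM + 1). Procr fell by 1.87 (adjusted p = 0.0141), and Mr1, which presents vitamin B metabolites, had 58, 44 and 0 counts (adjusted p = 0.00171). The median of 0.02, or -1.47 on log2(TPM + 1), was on the CPM scale that of Cd1d1, a lipid-presenting gene, and stays there with Mr1 set at 3 counts. Class II genes, which mark professional antigen-presenting cells, were near the floor, with 51, 39 and 23 counts summed over 12 genes, and Cd74 and Ciita were at 0 in every library. Of those 28 genes of the locus, 12 were called higher, 7 lower and 9 not, with a median of 0.10, or -1.21 on log2(TPM + 1). Pfdn6, a chaperonin partner encoded near Tapbp, was called higher by 4.12 (adjusted p = 1.50e-07) and Clic1 fell by 0.80 (adjusted p = 0.0163).

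The promoters of H2-K1, H2-D1, H2-T23 and B2m are shown, since these are the members on which the comparison of heavy and light chains rests and the classical heavy chains are known to share their upstream elements. RefSeq sequence of GRCm38.p6, from 250 bases before to 50 after the start of transcription, was at hand for 9 members, without Tap2. In H2-K1 (chr17:34000348-34000457, minus strand) and H2-D1 (chr17:35262924-35263033, plus strand), 97 of 110 bases aligned without a gap were identical (88.2%). Relative to the annotated start, the stretch lies at -110 to -1 in H2-K1 and at -170 to -61 in H2-D1. In B2m (chr2:122147547-122147686, plus strand) and H2-T23 (chr17:36032702-36032831, minus strand) the bases before the start are given. Capitals mark matches to the motifs that follow.
H2-K1: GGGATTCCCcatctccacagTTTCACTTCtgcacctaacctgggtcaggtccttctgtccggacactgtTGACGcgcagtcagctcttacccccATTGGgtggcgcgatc
H2-D1: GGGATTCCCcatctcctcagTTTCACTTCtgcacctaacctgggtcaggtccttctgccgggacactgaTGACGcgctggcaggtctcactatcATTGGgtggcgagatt
H2-T23: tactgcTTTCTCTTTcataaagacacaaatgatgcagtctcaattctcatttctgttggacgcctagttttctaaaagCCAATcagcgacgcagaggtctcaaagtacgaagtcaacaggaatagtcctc
B2m: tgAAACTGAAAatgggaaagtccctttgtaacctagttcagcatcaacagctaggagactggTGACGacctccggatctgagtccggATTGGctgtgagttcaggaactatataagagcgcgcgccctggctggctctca
Searched on both strands, the NF-kappaB palindrome GGGATTCCC was present in H2-K1 and H2-D1 and in 0.370% of 27025 promoter windows. The interferon regulatory core AAANNGAAA was present in H2-T23 and B2m and in 10.7% of windows. TTTCACTTC, an element of the same kind that was added after the windows had been read, was present in H2-K1, H2-D1 and H2-M3 and in 0.522%. CCAAT was present in 8 of 9 members against 37.9% of windows, and TGACG in 6 of 9 against 5681 of the 27025 windows. No motif overlapped another in the stretches shown. The windows of Tap1 and Psmb9, which are transcribed away from each other, overlap by 275 bases, so they are not independent. H2-K1 and H2-D1 had ICR to OG2 ratios of 1.72 and 4.11. The part of promoter sequence in these ratios was not tested, since OG2 and ICR promoters were not read. The motifs are matches of letters in a reference, not measured sites.

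Among 9325 genes with a mean of at least 10 CPM and in none of the lists, the 5 whose values over the 3 libraries lay nearest to the members' median profile were Esf1, Dek, Clk3, Serping1 and Trim47. That profile was -0.39, 0.07 and 0.51 log2 units around its mean in OG2 MEFs, ICR MEFs and the library labelled ESC. The distances ran from 0.115 for Esf1 to 0.128 for Trim47. A likeness over 3 libraries is coarse, and B2m and H2-T23 themselves departed from this profile in opposite directions.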

How the data were processed

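RNA-seq libraries of OG2 MEFs, ICR MEFs and R1 ESCs were analysed, with 1 library each. By the study's methods, reads of 50 bases in pairs were trimmed with TRIMMOMATIC and aligned to Ensembl transcripts, and the submitters' processing notes name Bowtie, RSEM and mm10. The annotation release is unsure, and the GC-content step that the methods name was assumed not to have been applied to the expected counts. The authors deposited, per gene, an expected count from RSEM, TPM, which corrects for length within a library, and FPKM. The deposited FPKM was not used. Some 9.59% to 11.1% of genes had an expected count that was not whole (tolerance 0.005).

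Expected counts were rounded. Levels are log2(CPM + 1) with TMM factors of 1.09, 1.13 and 0.812. edgeR 4.0.16 under R 4.3.3 was run on all genes with its filter on low counts (quasi-likelihood test, Benjamini-Hochberg adjustment, threshold 0.05), with 1 residual degree of freedom. It was tested on simulated data. Ratios between MEFs have exact conditional binomial 95% intervals. Alternatives were pseudocounts of 0.1 and 5, TPM, TPM percentiles, median-of-ratios size factors, GC-content correction over 20 bins, no filter, at least 10 counts in 1 library, each MEF library left out, and DESeq2 1.42.0. Gene positions and transcripts are those of GENCODE M21, in which 98.0% of the transcript identifiers were found, and coding sequences were aligned with Biopython 1.88. Coding identity took the place of a planned protein comparison.

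Members and lists were chosen with earlier results of these data known. The genes named are every member and, from each list, up to 4 genes with the highest mean TPM, plus Psmb5, Psmb6, Psmb7, Psmb10, Nlrc5 and Irf1. Another gene that this rule names is not reported here, and others it names were counted with their list only. Markers and list genes at 0, the leukocyte markers Itgam and Coro1a, the ends of a range and the Qa genes were named after their values were seen. So were Tapbpl, Erap1, Tpp2, Nrd1 and Lnpep. H2-K2, H2-Q8, H2-Q9, H2-T9, H2-T10, H2-T18, H2-Bl, Hsd17b8 and Rps18 were not analysed here. The endothelial and epithelial marker lists were used to check labels.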

Additional observations from a re-analysis of the deposited data

How the results depend on the processing

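Over all genes, DESeq2 called 3034 higher and 2911 lower of 13681 tested, in place of 3980 and 4563. The count of members called higher in the library labelled ESC, 4, was 5 without the filter on low counts, where H2-D1 was added (edgeR, adjusted p = 0.0164), and 3 with DESeq2, where Psmb8 was lost. The count called lower, 1, was 2 without the filter and 2 after GC-content correction, with Tap2 added both times. Of 50 member fold changes under another scale, pseudocount or correction, 27 stayed within the MEF spread. With TPM, 4 changed sign, to -0.06 for Tapbp, -0.01 for Psmb8, -0.69 for H2-D1 and -0.98 for Tap1, and the median over all genes tested went from -0.41 to -1.55. Under the other scales 0 did, and the difference in TPM percentile had the sign of the fold change for all 10 members. The cause was not tested. The summed heavy chains gave 0.43 with TPM in place of 2.07, ran from 1.54 to 2.60 when either MEF library was left out, and gave 2.27 with Gm7030, Gm8909 and Gm11127 added, a choice made after the data were seen. Of 50 member differences between the MEF libraries, 49 stayed within the counting interval and 1, that of B2m, did not, and H2-D1 alone passed 1 log2 unit under every scale tried. Relative to the scaling used, the median fold change of all genes shifted by 0.13 with a pseudocount of 5, 0.17 with median-of-ratios size factors and 0.37 with GC-content correction. No paired analysis was possible because the single ESC library leaves fewer than 2 shared replicate numbers. The edgeR test without a MEF library was not run, since no residual degree of freedom is left, and pseudocounts and TPM do not enter that test. Depth limits H2-M3, Psmb8 and Psmb9, which had at most 13 counts in any library.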

Other observations

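The cell type lists not described above gave the following values. Of 7 endothelial markers, 3 were tested, of which 2 were called higher and 1 lower in the library labelled ESC, and they summed to 4.10, 5.03 and 28.0 TPM in OG2 MEFs, ICR MEFs and the library labelled ESC. Of 6 epithelial markers, the 3 tested were all called higher, with summed TPM of 46.7, 55.7 and 108. Of 12 leukocyte and macrophage markers, 7 were tested, with 3 called higher and 4 not called, and their summed TPM were 61.5, 36.8 and 35.8. Those called higher were Itgam, Laptm5 and Coro1a, by 4.06, 2.94 and 1.38, or 1.76, 1.11 and -0.03 on log2(TPM + 1). Itgam had 21, 11 and 88 counts and Laptm5 46, 16 and 64, in the same order of libraries. Ptprc, which defines leukocytes, had 11 counts in OG2 MEFs and 0 in both other libraries, and Cd3e was at 0 throughout. The part of these cells in the class I values was not tested.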
